A study of Mus musculus with 15 samples.

Results

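The genes described here are 26 genes of cholesterol and fatty acid synthesis in the ventricles of mouse embryos at embryonic day 11.5. They were chosen by name, not by a cut on their measured values, but with earlier results of these data known. They were taken out of the 78317 genes counted in 15 RNA-seq libraries. By role they are 3 regulators of the pathway, 7 enzymes of the mevalonate arm, 11 enzymes of the sterol arm, 1 sterol transfer protein and 4 enzymes of fatty acid synthesis. All 26 passed the filter on low counts and were among the 20269 genes tested.

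The study deleted parts of Atf4, which encodes a stress-response transcription factor, in heart muscle cells. In the CDS line, exons 2 and 3 of Atf4, which hold the coding sequence, lie between loxP sites and the polyadenylation signal is kept. In the PAS line, the polyadenylation signal itself lies between loxP sites. Both lines were crossed with Xmlc2-Cre mice, whose recombinase is driven by a cardiac myosin light chain promoter, and all samples are labelled C57BL/6. The groups are CDS knockout (4 libraries), CDS control (4), PAS knockout (4) and PAS control (3 analysed here), and the labels describe the controls only as control, so whether they carried Cre or floxed alleles is not given. Neither the sex of the embryos nor whether embryos were pooled is given in the sources used here. Deletion was aimed at cardiomyocytes while the RNA came from whole ventricle, so the values also hold RNA of cells that were not targeted. In such bulk tissue, fewer cells of a type and less RNA per cell cannot be told apart.

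Library totals spanned 30376847 to 46472141 counts in the CDS line and 22623499 to 29315724 in the PAS line. Values below are CPM, that is, counts corrected for the size of each library after TMM normalisation, and levels of different genes are compared only as CPM per kilobase of exon. The labels conflict on the sample: the series' design text and tissue field give ventricle with a stranded poly(A) kit, whereas the extraction text describes cultured cortical neurons with ribosomal RNA depletion. The sample titles say only heart. The word ventricle is used here after the design text and tissue field. The counts hold heart muscle, with Actc1 at 10787 ± 656 CPM and Myh7 at 6563 ± 402 CPM (SD, n = 4) in CDS controls. These values alone do not tell ventricle from whole heart. The summed level of 6 neural markers lay between 29.4 and 48.2 CPM in all libraries of the CDS line. Atf4 itself stood at 44.5 ± 3.56 CPM (SD, n = 4) in CDS knockouts against 114 ± 1.99 CPM (n = 4) in their controls, and at 286 ± 18.8 CPM (n = 4) in PAS knockouts against 97.1 ± 4.27 CPM (n = 3) in theirs. The libraries labelled PAS knockout thus held more Atf4 reads, not fewer. CDS knockout 3 stood apart from its group: over all genes its chi-square per degree of freedom against the other 3 was 50.3 to 62.6, where no other replicate pair exceeded 13.8. It had the highest summed erythroid markers (4112 CPM) and the lowest summed cardiomyocyte markers (25056 CPM) of the 15 libraries.

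Cells make cholesterol from acetyl-CoA through the mevalonate pathway, which ends in farnesyl pyrophosphate, and the sterol pathway, which closes squalene into lanosterol and trims it to cholesterol. The transcription factors encoded by Srebf2 and Srebf1 raise the transcription of nearly all these enzymes when sterols in the endoplasmic reticulum are low, and Insig1 holds them back when sterols are plentiful. SREBP proteins bind sterol regulatory elements and E-boxes next to sites for the factors NF-Y and Sp1, which is why the family is known for changing as a block. Fatty acid synthesis starts from the same acetyl-CoA and in many tissues responds mainly to the Srebf1 products.

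In the results Hmgcs1 is the most abundant mevalonate enzyme, and Insig1 is a regulator that is itself an SREBP target. Mvk is the member with the most NF-Y boxes. Hsd17b7 is a member that ran against the rest in several, not all, libraries, with its largest such deviations in the PAS line. For these reasons the promoters of these 4 members are shown. Each is the 250 bases before the gene's start, 5′ to 3′ on the strand of the gene, from RefSeq on GRCm38.p6. Capitals mark the NF-Y box CCAAT, the E-box CACGTG and the short form CACNCCAC of the sterol regulatory element, on either strand. Hmgcs1 is at chr13:119690101-119690350 on the plus strand, Insig1 at chr5:28071162-28071411 on the plus strand, Mvk at chr5:114444019-114444268 on the plus strand and Hsd17b7 at chr1:169969206-169969455 on the minus strand.
Hmgcs1: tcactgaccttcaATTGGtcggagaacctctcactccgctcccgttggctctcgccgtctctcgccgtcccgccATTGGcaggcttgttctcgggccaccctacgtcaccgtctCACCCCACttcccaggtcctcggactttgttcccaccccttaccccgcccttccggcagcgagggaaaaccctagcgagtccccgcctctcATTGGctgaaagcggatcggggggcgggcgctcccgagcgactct
Insig1: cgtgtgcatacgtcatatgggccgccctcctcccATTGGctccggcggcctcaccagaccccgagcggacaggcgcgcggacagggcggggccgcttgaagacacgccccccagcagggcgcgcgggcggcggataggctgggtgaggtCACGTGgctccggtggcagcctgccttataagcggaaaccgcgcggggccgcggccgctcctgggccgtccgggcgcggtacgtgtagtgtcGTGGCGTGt
Mvk: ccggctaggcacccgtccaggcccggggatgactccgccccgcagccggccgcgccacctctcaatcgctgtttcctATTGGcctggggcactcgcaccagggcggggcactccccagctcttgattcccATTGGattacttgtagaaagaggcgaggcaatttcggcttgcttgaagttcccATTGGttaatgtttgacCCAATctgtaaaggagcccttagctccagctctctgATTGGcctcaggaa
Hsd17b7: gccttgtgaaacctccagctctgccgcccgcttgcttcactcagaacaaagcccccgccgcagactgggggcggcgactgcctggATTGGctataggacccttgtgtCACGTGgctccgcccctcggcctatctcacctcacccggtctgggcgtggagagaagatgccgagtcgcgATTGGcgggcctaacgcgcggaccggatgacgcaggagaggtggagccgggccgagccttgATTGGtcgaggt

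Of the 26 members, 20 had an entry in the promoter table, and Fdft1, Fdps, Scd1, Scd2, Sqle and Stard4 did not. CCAAT was found on either strand in 18 of the 20 (90%), against 37.49% of all 27025 genes in the table, counted the same way, and 33.85% of all 32851 promoters of the same length. The GC box GGGCGG was in 17 of the 20 (85%), against 35.36% of all genes. The E-box CACGTG was in 4 (20%, against 6.86% of all genes) and CACNCCAC in 3 (15%, against 6.046%). The same letters directly preceded by AT were in 0 of the 20 windows and in 0.2257% of all genes. The ATF4 core TGATGNAA was in 1 of the 20 (5%), against 3.907% of all genes. Mvk held 5 CCAAT boxes, Hmgcs1, Hsd17b7, Fasn and Msmo1 3 each, and Acaca and Acat2 held none. A gene with several listed starts counted as a match if any of them held the motif, and a match here is only a match of letters.

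In the control ventricle the members differed widely in level per kilobase of exon. Scd2, a stearoyl-CoA desaturase, stood far above the rest at 140 ± 8.32 CPM per kb (SD, n = 4) in CDS controls and 137 ± 3.46 (n = 3) in PAS controls. Next came Srebf2 and Hmgcs1, the HMG-CoA synthase of the mevalonate arm. Srebf2 had 27.7 ± 1.49 and 27.9 ± 3.28 CPM per kb, and Hmgcs1 had 25.99 ± 2.19 and 28.8 ± 2.66. These swapped places between the control groups and did not differ beyond their spread. Fasn, the fatty acid synthase, followed with 21.5 ± 1.25 CPM per kb in CDS controls, and then came Pmvk (phosphomevalonate kinase) with 17.1 ± 0.821 and Cyp51 (lanosterol demethylase) with 15.3 ± 1.51.

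From Fdft1 (squalene synthase), at 14.1 ± 1.11 CPM per kb in CDS controls, down to Dhcr7, the reductase whose product is cholesterol, at 5.61 ± 0.354, neighbours in the order mostly lay within each other's spread. This middle stretch holds, in falling order, Fdft1, Fdps (farnesyl pyrophosphate synthase), Acat2 (acetoacetyl-CoA thiolase), Sqle (squalene epoxidase), Hsd17b7 (a sterol ketone reductase), Sc5d (a sterol desaturase), Insig1, Stard4 (a cytosolic sterol carrier), Srebf1, Nsdhl (a sterol dehydrogenase), Mvd (mevalonate pyrophosphate decarboxylase), Msmo1 (methylsterol oxidase), Idi1 (isopentenyl pyrophosphate isomerase), Mvk (mevalonate kinase), Ebp (a sterol isomerase) and Dhcr7. At the foot were Acaca (acetyl-CoA carboxylase) with 5.19 ± 0.155 CPM per kb, Lss (lanosterol synthase) with 2.75 ± 0.166, Tm7sf2 (a sterol reductase) with 1.64 ± 0.184 and Scd1 with 0.904 ± 0.168. The exon length of each member, Lss and Acaca included, counts every annotated exon, which lowers values per kilobase to a degree that was not measured.

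The paired paralogs were unequal in all groups. Scd2 was at 158 ± 18.4 times (SD, n = 4) the level of Scd1 per kilobase in CDS controls, 169 ± 32.8 times in CDS knockouts, 152 ± 28.3 times (n = 3) in PAS controls and 156 ± 13.0 times in PAS knockouts. Srebf2 was at 2.90 ± 0.0625 times the level of Srebf1 per kilobase in CDS controls, 2.78 ± 0.0611 times in CDS knockouts, 3.05 ± 0.264 times in PAS controls and 2.82 ± 0.0667 times in PAS knockouts. Scd1 and Scd2 are close paralogs on the same chromosome, at chr19:44382894-44396318 on the minus strand and chr19:44282113-44295303 on the plus strand of GRCm39, so reads that fit both make the low value of Scd1 uncertain. The plot of member levels places the 4 groups side by side.

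**Figure D1:**
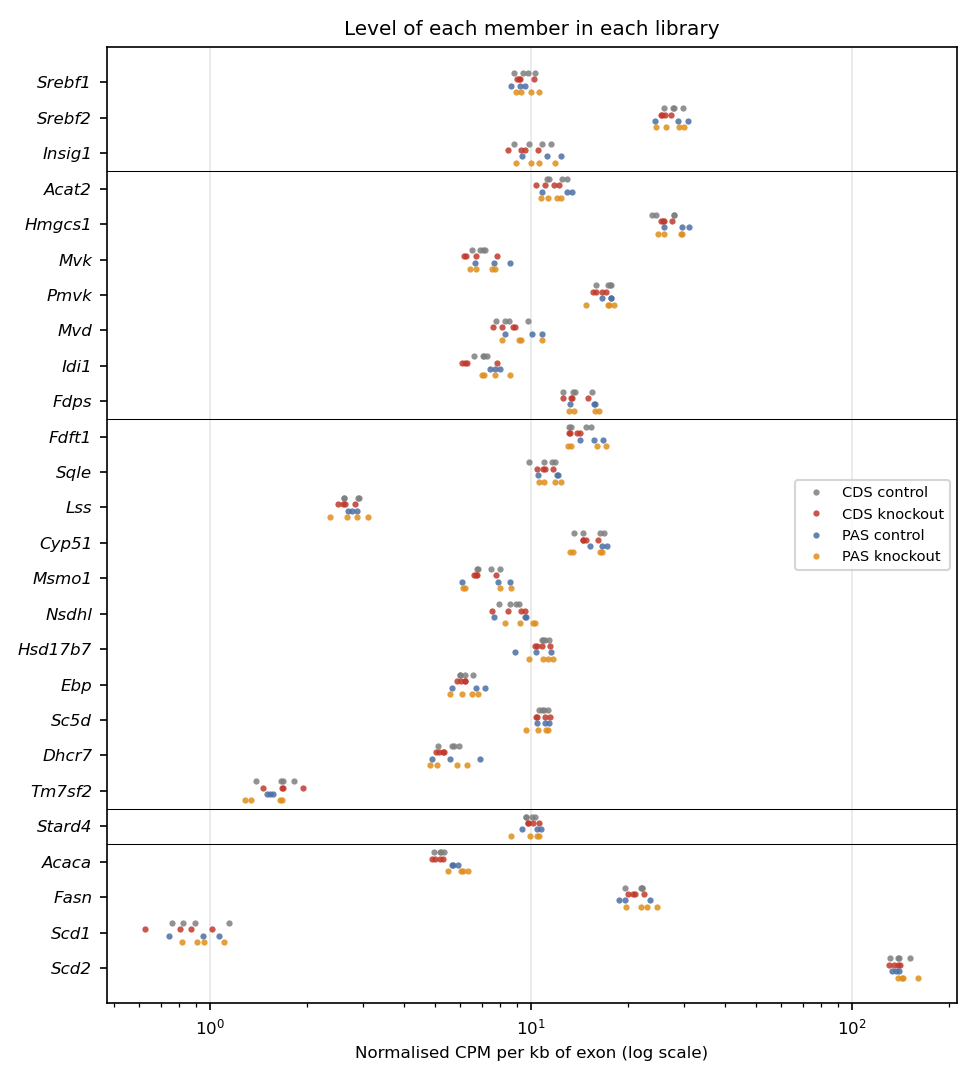
Level of each member in each of the 15 libraries, as normalised CPM per kilobase of exon on a log axis, with colours for the 4 groups. Scd2 sits alone near 140, Scd1 near 0.9, and the 4 groups lie close together in every row.

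With the Atf4 coding sequence deleted, no member differed from control beyond the threshold. In the CDS line 0 of 26 passed an adjusted p of 0.05 (edgeR), where 11 of all 20269 genes did (0.0543%). At an unadjusted p under 0.05 the count was also 0 of 26, against 2.62% of all genes, and DESeq2 and limma-voom called 0 members too. The estimates were small and mostly below 0: 22 of 26 were negative, against 50.6% of all genes, and 4 positive, against 49.4%, with a median log2 change of -0.04 (all genes -0.00) and a range from -0.13 (Scd1) to 0.04 (Tm7sf2). The 95% intervals of 23 members lay within 1.25-fold of no change in either direction and those of all 26 within 1.5-fold, the outermost ends being 0.737-fold and 1.20-fold. No member had non-overlapping groups, against 1.48% of all genes higher and 1.32% lower. The count of negative estimates rested on single libraries, being 14 of 26 without CDS control 1 and 26 of 26 without CDS knockout 4. Without CDS knockout 3, the library that stood apart, it was 21 of 26, with a median of -0.03, and 0 of 26 members passed in this line, in the difference between lines or in the average.

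All 3 regulators were among the negative estimates. Srebf2, at chr15:82031382-82089580 on the plus strand of GRCm39, measured 182, 188, 183 and 196 CPM in CDS knockouts 1 to 4. Its CDS controls gave 213, 187, 200 and 198 CPM. The highest library was a control, but 2 of the knockouts reached at least the level of the lowest control. The log2 change of Srebf2, whose p was the smallest among the members in this line, was -0.09 ± 0.07 (SE; adjusted p = 1.00 by edgeR). Srebf1 came to -0.03 ± 0.05 and Insig1 to -0.12 ± 0.10 on the log2 scale.

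In the mevalonate arm 6 of 7 estimates were negative and in the sterol arm 9 of 11. Pmvk, at chr3:89361848-89376320 on the plus strand, had the second smallest p, with 26.7, 27.2, 29.2 and 28.5 CPM in the knockouts. Its controls stood at 30.2, 30.3, 27.3 and 29.6 CPM. The third control lay among the knockouts, and the log2 change was -0.07 ± 0.06 (adjusted p = 1.00 by edgeR). Hmgcs1 was level, with 118, 117, 119 and 126 CPM in knockouts against 128, 112, 109 and 128 CPM in controls and a log2 change of 0.01 ± 0.07. The widest intervals of the sterol arm were those of Msmo1 (-0.33 to 0.21) and Tm7sf2 (-0.19 to 0.26).

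The 4 fatty acid enzymes were all slightly negative in the CDS line, with log2 changes of -0.02 ± 0.04 for Acaca, -0.03 ± 0.07 for Fasn, -0.05 ± 0.05 for Scd2 and -0.13 ± 0.15 for Scd1. None of these passed the test. Summed muscle and endothelial markers stood lower in the same line, though none of these markers passed the test. The 6 cardiomyocyte markers together had 27521 ± 1710 CPM (SD, n = 4) in the knockouts, against 29838 ± 1248 CPM (n = 4) in their controls. Among them Myh6 was level (3656 and 3657 CPM). The 7 endothelial markers summed to 1370 to 1436 CPM with the deletion and 1464 to 1534 CPM without it, ranges that do not overlap. Taken singly, 2 of the 7 had non-overlapping groups, both lower, against 1.32% of all genes. Nfatc1 was level (65.2 and 64.9 CPM). Epicardial, mesenchymal and leukocyte markers, 6 each, summed to 331 ± 11.3, 3019 ± 259 and 38.3 ± 6.30 CPM (SD, n = 4) in the knockouts and 344 ± 21.4, 2867 ± 261 and 38.2 ± 8.32 CPM (n = 4) in their controls. The markers' part in the small negative median of the members was not tested. Ttr, which liver cells and other epithelia make, took nearly all of the liver list, which summed to 105 and 157 CPM in CDS knockouts 3 and 4 and to 12.2 to 36.0 CPM elsewhere in this line, while Alb stayed at or below 0.0639 CPM in all libraries. With both of these libraries left out, 0 of 26 members passed.

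With the polyadenylation signal deleted, again no member passed the threshold. In the PAS line 0 of 26 passed (edgeR), where 2 of all genes did (0.00987%), and 0 of 26 reached an unadjusted p under 0.05, against 5.24% of all genes. DESeq2 and limma-voom again called 0. Estimates were negative for 19 of 26 (50.6% of all genes) and positive for 7 (49.4%), with a median of -0.04 (all genes -0.00). They ran from -0.14 for Cyp51 to 0.12 for Fasn. Intervals of 22 members lay within 1.25-fold and of 26 within 1.5-fold, with outermost ends of 0.780-fold and 1.31-fold. No member's groups were free of overlap, against 2.21% of all genes higher and 2.38% lower. Here the balance turned with single libraries: the negative count was 10 without PAS knockout 2, 12 without PAS knockout 4, 11 without PAS control 2, 14 without PAS control 1 and 13 with a replicate block.

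The direction of the estimates differed by arm. All 7 mevalonate enzymes were negative with a median of -0.06, and all 4 fatty acid enzymes were positive with a median of 0.08. The mevalonate count depended on single libraries, with as many as 4 of 7 positive when PAS knockout 4 was left out, whereas at least 3 of 4 fatty acid enzymes were positive under all 14 alternatives run. Those alternatives refit the same libraries, which the 4 enzymes share, so this count is no independent support for a direction. Scd2 measured 789, 779, 878 and 757 CPM in PAS knockouts and 727, 764 and 749 CPM in PAS controls. The third knockout stood above all other libraries, and the fourth lay below the highest control. Its log2 change was 0.10 ± 0.05 with a 95% interval from -0.01 to 0.21 (adjusted p = 0.979 by edgeR).

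Fasn, at chr11:120696672-120715373 on the minus strand of GRCm39, had the second smallest p in the PAS line. It measured 250, 215, 270 and 241 CPM in knockouts and 205, 256 and 215 CPM in controls. Each group held both low and high libraries, and the log2 change of 0.12 ± 0.08 gave an adjusted p of 0.986 (edgeR). Acaca came to 0.06 ± 0.05 and Scd1 to 0.04 ± 0.17. Among the regulators Srebf1 was at 0.08 ± 0.06, Srebf2 at -0.03 ± 0.07 and Insig1 at -0.09 ± 0.12. The 2 positive estimates of the sterol arm were Hsd17b7 with 0.09 ± 0.07 and Nsdhl with 0.08 ± 0.09. The plot of knockout changes sets both lines side by side.

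**Figure D2:**
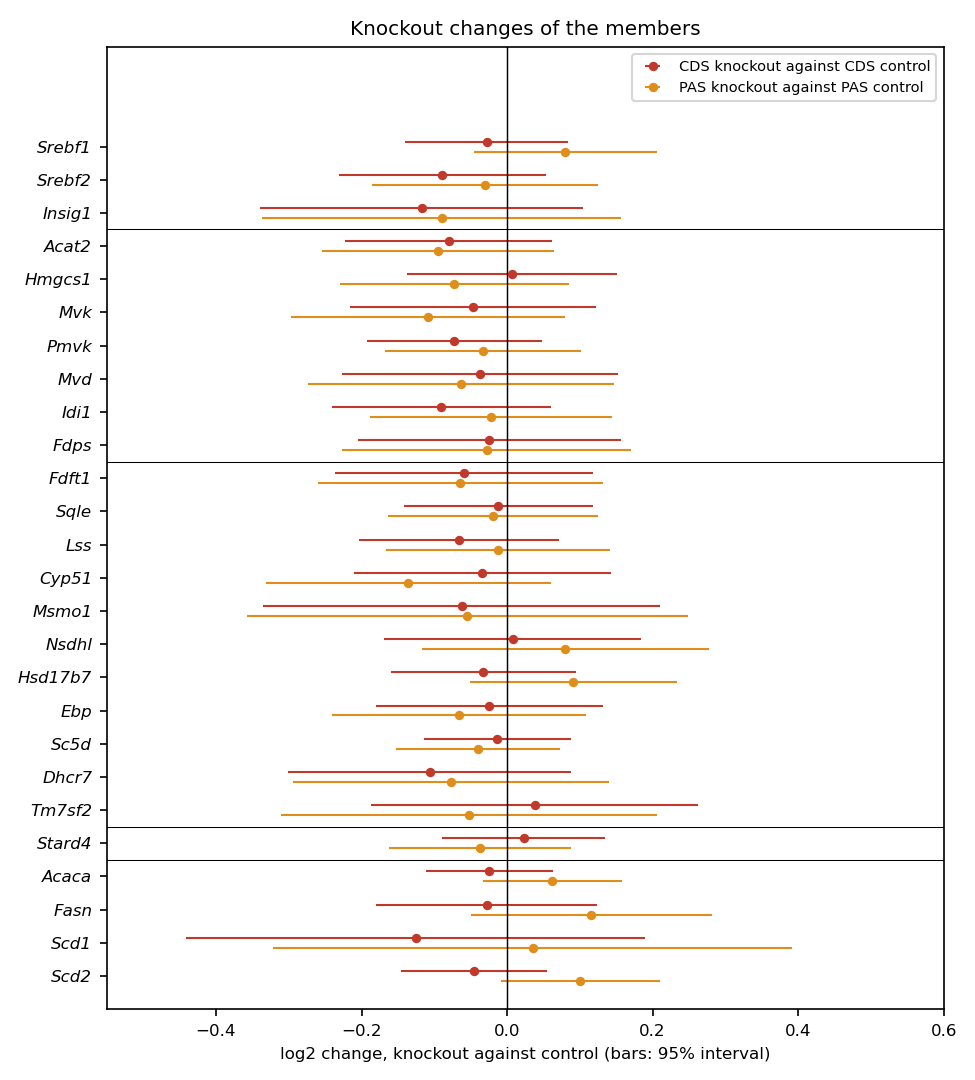
log2 change of each member in knockout against control, for the CDS line and the PAS line, with 95% intervals as bars. Every interval includes 0, and the fatty acid enzymes lie left of 0 in the CDS line and right of 0 in the PAS line.

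The difference between the knockout effects was tested directly, as the PAS change minus the CDS change. No member passed (0 of 26, against 0.00493% of all genes, edgeR), and 0 of 26 reached an unadjusted p under 0.05, against 4.16%. Estimates were split, 14 above 0 (49.9% of all genes) and 12 below (50.1%), with a median of 0.02. The split turned with single libraries, from 9 above 0 without PAS control 3 to 21 above 0 without PAS control 2. All 4 fatty acid enzymes were positive here, as under the 22 alternatives run, which reuse the same libraries. The largest estimate was that of Scd1 (0.16 ± 0.23) and the smallest p that of Scd2, with a difference of 0.15 ± 0.07 (adjusted p = 0.995) and a 95% interval from -0.00 to 0.29. Acaca had the next smallest p and the smallest estimate of these 4, 0.09 ± 0.06 (adjusted p = 0.995). Its CDS knockouts measured 88.9, 85.3, 83.9 and 90.6 CPM and the matching controls 89.4, 84.99, 88.9 and 91.3 CPM, without separation; the PAS values follow below. Intervals of 19 members were within 1.25-fold and of 25 within 1.5-fold.

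Averaged over both lines, the knockout effect was bounded most tightly. All 26 intervals lay within 1.25-fold of no change. No member passed (0 of 26, against 0.0789% of all genes, edgeR), and 0 reached an unadjusted p under 0.05 (3.70% of all genes). The estimates were negative for 20 of 26 (50.5% of all genes) and positive for 6 (49.5%), with a median of -0.04. The negative ones included 7 of 7 mevalonate enzymes and 9 of 11 sterol enzymes.

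Acat2, which joins the first acetyl-CoA units, had the smallest p in that average. It stood at 30.0, 26.3, 28.1 and 31.1 CPM in CDS knockouts against 32.8, 28.9, 28.4 and 31.8 CPM in CDS controls. In the PAS line it stood at 30.5, 27.4, 31.6 and 28.6 CPM in knockouts against 32.9, 34.0 and 27.5 CPM in controls. Groups overlapped in both lines, and the average log2 change was -0.09 ± 0.05 (adjusted p = 1.00 by edgeR). Cyp51 measured 64.2, 63.9, 65.2 and 71.4 CPM in knockouts of the CDS line and 74.2, 60.1, 64.1 and 72.3 CPM in CDS controls. Its PAS knockouts gave 72.3, 59.6, 73.3 and 58.1 CPM and its PAS controls 75.8, 73.6 and 67.3 CPM. Here too each knockout group reached into its control group, and the average change was -0.08 ± 0.06 (adjusted p = 1.00 by edgeR).

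The control groups of both lines were compared as a reference for how far the members move without deletion. No member passed (0 of 26, edgeR), where 29 of all genes did (0.143%), and 1 of 26 had an unadjusted p under 0.05, against 9.60% of all genes. Estimates were positive (higher in the PAS controls) for 21 of 26, against 51.3% of all genes, and negative for 5, against 48.7%, with a median of 0.05 (all genes 0.00). All 7 mevalonate enzymes were positive with a median of 0.14, and 5 to 7 of them under the alternatives run. The lines also differ in depth and were counted in separate runs, which cannot be told apart from the line. Their marker content differed in part. The liver list summed to 12.2 to 36.0 CPM in CDS controls and 0.964 to 1.44 CPM in PAS controls. All 6 mesenchymal markers had higher estimates in PAS controls, though 0 of 6 passed. Summed cardiomyocyte markers were close (29838 and 29824 CPM). The part of tissue content in the members' values was not tested. The median of the members depends on single libraries: it was 0.15 without PAS control 3, 0.01 without PAS control 1 and -0.00 without PAS control 2. The count of positive estimates fell to 12 of 26 without PAS control 2.

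Acaca, at chr11:84020498-84292477 on the plus strand of GRCm39, showed the clearest line difference. PAS controls measured 96.7, 101 and 97.4 CPM, all above the 4 CDS controls given above. Its log2 change was 0.15 ± 0.05 (adjusted p = 0.249 by edgeR). PAS knockouts of the same line gave 108, 94.1, 105 and 103 CPM. Hmgcs1 measured 143, 136 and 119 CPM in PAS controls, of which the lowest lay within the CDS control range, with a log2 change of 0.15 ± 0.07 (adjusted p = 0.542 by edgeR). PAS knockouts had 135, 119, 136 and 114 CPM of Hmgcs1. Groups of 2 members did not overlap, Acaca and Idi1, both higher in PAS controls, against 4.30% of all genes higher and 5.16% lower.

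**Figure D3:**
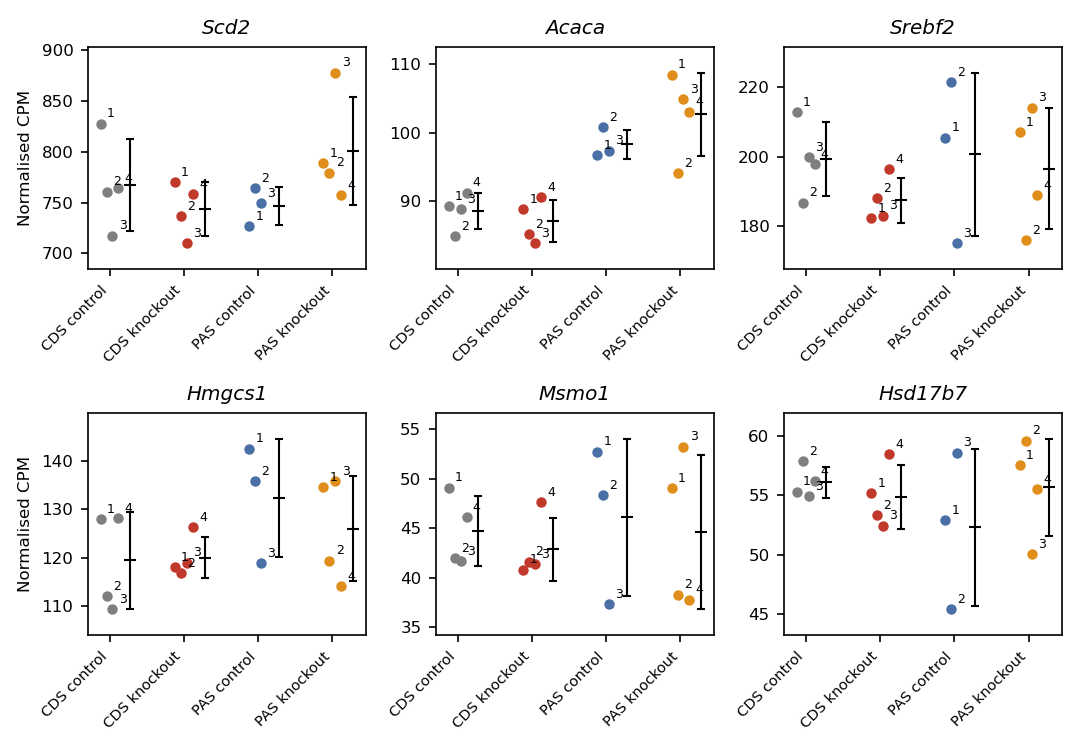
Normalised CPM of Scd2, Acaca, Srebf2, Hmgcs1, Msmo1 and Hsd17b7 by group, with a point per library numbered by replicate and bars for the mean and SD of each group; the vertical axes do not start at 0. Acaca is the only panel in which the PAS controls (96.7 to 101) clear all CDS controls (84.99 to 91.3).

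Within each group, most members were high or low in the same libraries. For each library the members above their own group's mean were counted on the log2 scale. In CDS knockouts 1 to 4 the counts were 9, 7, 5 and 25 of 26. In CDS controls they were 25, 4, 7 and 19. In PAS knockouts they were 25, 2, 24 and 2, and in PAS controls 21, 25 and 2. Over all tested genes the share above the group mean lay between 49.3% and 52.1% in every library. Deviations within a group sum to 0, so a high library makes the others low, and these counts are a description without a test.

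The arms moved together in most libraries but not in all. In PAS knockout 3 the median deviation was 0.12 for the 18 mevalonate and sterol enzymes and 0.14 for the fatty acid enzymes. In PAS knockout 2 it was -0.13 and -0.15. The signs were opposite in PAS control 1 (0.06 and -0.03) and CDS knockout 1 (-0.04 and 0.04). In PAS controls the fatty acid arm summed to 1034, 1126 and 1065 CPM, lowest in PAS control 1, where the other arms stood high. Scd2 alone gave 727, 764 and 749 CPM of these sums. Summed over the mevalonate arm, PAS knockouts 1 and 3 stood at 330 and 333 CPM and PAS knockouts 2 and 4 at 293 and 281 CPM. PAS controls 1 and 2 stood at 342 and 334 CPM and PAS control 3 at 289 CPM. The sterol arm summed to 489, 413, 486 and 421 CPM in PAS knockouts and to 478, 481 and 430 CPM in PAS controls. In both arms the high knockouts were level with the high controls and the low knockouts with the low control. The mevalonate sum averaged 309 ± 26.2 CPM (SD, n = 4) over the PAS knockouts and 322 ± 28.3 CPM (n = 3) over their controls, a gap smaller than the SD of either group. In the CDS line the mevalonate sums were 284.5, 278, 286 and 314 CPM in knockouts and 318, 284, 277 and 306 CPM in controls, with knockout 4 and controls 1 and 4 on the high side.

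**Figure D4:**
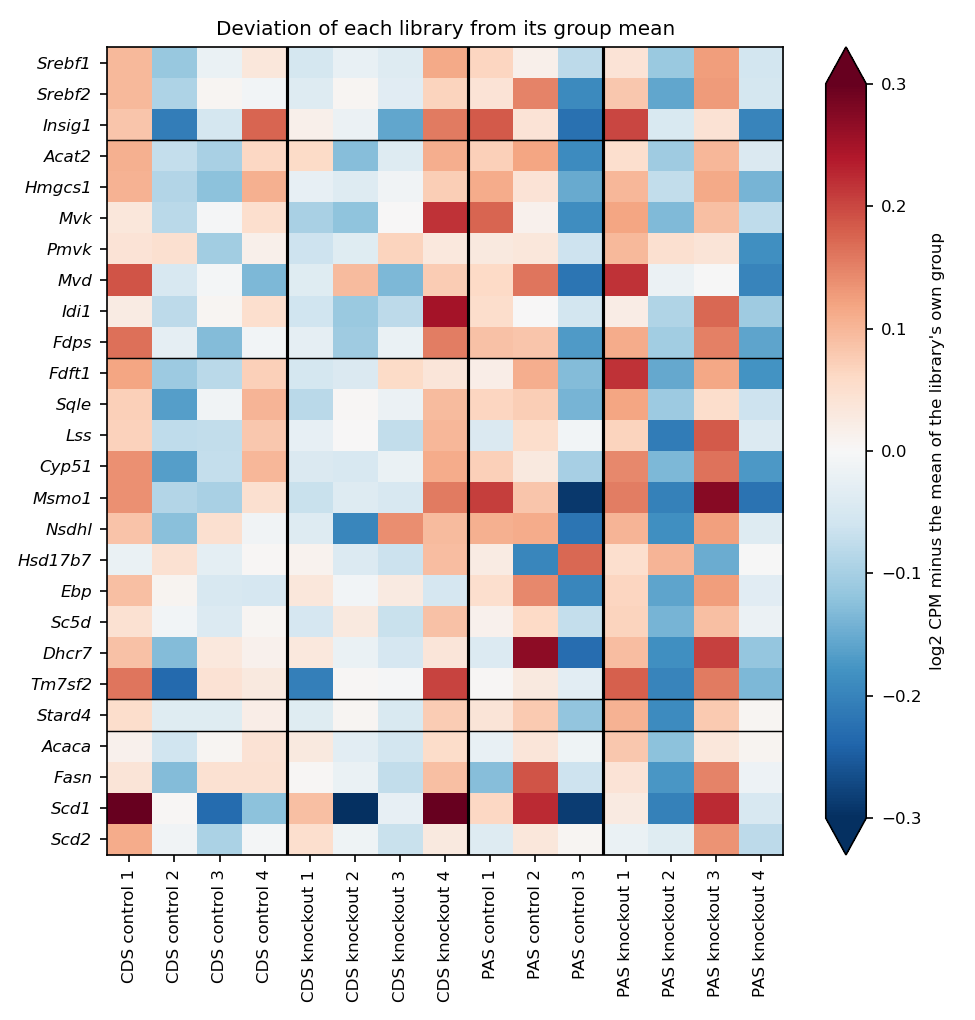
Deviation of each library from the mean of its own group for each member, as a difference in log2 CPM, with members in rows, the 15 libraries in columns, red for above and blue for below. Whole columns take the same sign: CDS knockout 4, CDS control 1, PAS knockouts 1 and 3 and PAS control 2 are high for 24 or 25 of 26 members, and PAS knockouts 2 and 4 and PAS control 3 for only 2.

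Msmo1 is an example, picked after its values were seen. It measured 49.0, 38.3, 53.3 and 37.8 CPM in PAS knockouts and 52.7, 48.3 and 37.3 CPM in PAS controls. The third knockout lay 0.27 above its group's mean log2 value and the third control 0.29 below. Its PAS knockout change, in contrast, was only -0.05 ± 0.14. Srebf2 followed the same order of libraries in part: 207, 176, 214 and 189 CPM in PAS knockouts and 205, 221 and 175 CPM in PAS controls. Insig1 did so too, with 36.6, 30.8, 32.8 and 27.7 CPM in PAS knockouts and 38.3, 34.7 and 28.8 CPM in PAS controls.

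Hsd17b7, also picked after its values were seen, ran the other way in PAS knockouts 2 and 3 and PAS controls 2 and 3. In PAS knockout 1 and PAS control 1 it deviated with most members, by 0.05 and 0.02 on the log2 scale. In PAS knockout 4 it lay at its group's mean. In CDS controls 1 and 2 it also ran against most members, by -0.02 and 0.05, but it went with them in CDS knockout 4 (0.09). It stood at 57.5, 59.6, 50.1 and 55.5 CPM in PAS knockouts and at 52.9, 45.4 and 58.6 CPM in PAS controls. It was thus lowest in PAS knockout 3 and PAS control 2, where most members were high, and highest in PAS knockout 2 and PAS control 3. Its promoter, printed above, holds 3 CCAAT boxes and an E-box.

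Most members spread more between replicates than the median of the tested genes in the CPM range that the members span (4.39 to 766 CPM). Their median within-group standard deviation was 0.115 on the log2 scale, against 0.0832 over the 11462 tested genes in the same CPM range, and 23 of 26 lay above that value. Scd1 (0.245) and Msmo1 (0.189) spread most, and Acaca (0.0590) least. Genes were not matched by level within that range, and the members share libraries, so they are not independent.

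**Figure D5:**
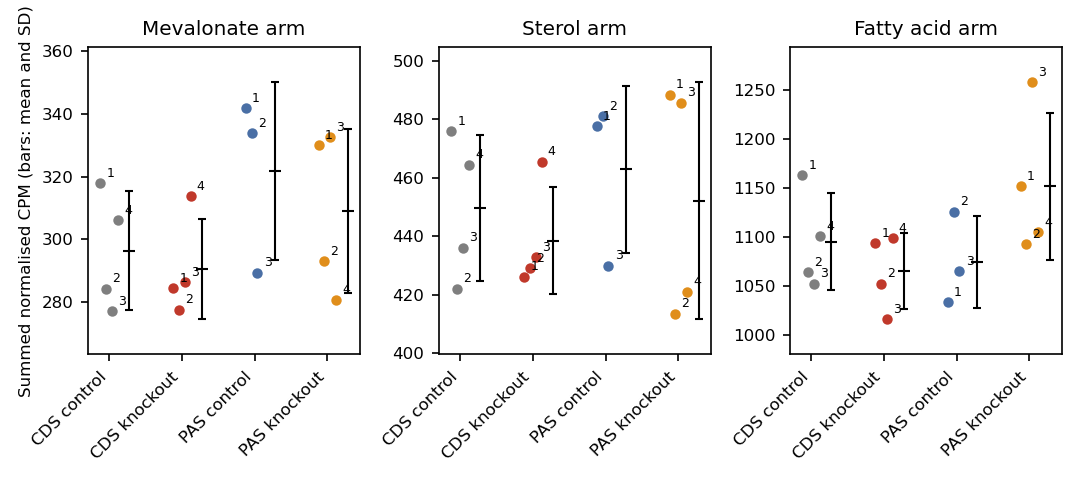
Summed normalised CPM of the mevalonate, sterol and fatty acid arms by group, with a point per library numbered by replicate and bars for the mean and SD of each group; the vertical axes do not start at 0. In the mevalonate and sterol panels PAS knockouts fall in a high pair and a low pair, and PAS control 3 lies with the low pair. Scd2 makes up most of each fatty acid sum.

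Other values of the same libraries did not follow a single order with the members. CDS knockout 4, CDS control 1 and PAS knockout 3, all high for the members, had the lowest totals of their groups (31410559, 30376847 and 23682810 counts), but so had PAS control 3 (22623499), which was low. Summed erythroid markers were 1142 CPM in PAS knockout 3 and 1090 CPM in PAS knockout 4, where the members stood high and low. The 5 adipocyte markers together stayed under 1 CPM in every library, with Lep at 0 in all. Cardiomyocyte markers summed to 29008 to 29678 CPM across the 4 PAS knockouts. In CDS knockout 4 and CDS control 1, leukocyte markers summed to 33.6 and 32.9 CPM, the lowest of their groups. In PAS knockout 3 and PAS control 2 they summed to 28.2 and 22.3 CPM, again the lowest. All these libraries were high for the members, but PAS control 1, also high, had the highest leukocyte sum of its group (39.3 CPM). The parts of depth and of cell content in the pattern were not tested.

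A list of 30 other genes of the pathway was examined in the same fit, and 0 of 30 passed in any of the comparisons. At an unadjusted p under 0.05 there were 2 of 30 in the CDS line (2.62% of all genes), 2 in the PAS line (5.24%), 2 in the difference between them (4.16%), 1 in the average (3.70%) and 3 between the controls (9.60%). The most abundant per kilobase in CDS controls were Acly, which makes cytosolic acetyl-CoA (38.7 CPM per kb), Elovl5, a fatty acid elongase (37.4), and Tmem97, a sterol-responsive membrane protein (27.96). Acly stood at 193, 190, 206 and 204 CPM in knockouts of the CDS line and 207, 200, 203 and 207 CPM in its controls. In the PAS line it stood at 220, 201, 214 and 202 CPM in knockouts and 205, 218 and 206 CPM in controls. Neither line separated the groups of Acly. Tmem97 had a log2 change of -0.11 ± 0.05 in the CDS line (adjusted p = 1.00 by edgeR).

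The genes with non-overlapping groups in the PAS line, named after their values were seen, were Me1 (lower, as 2.38% of all genes) and Lpin1 (higher, as 2.21%), that is, 1 of 30 in each direction. Me1, the cytosolic malic enzyme that supplies NADPH for fatty acid synthesis, measured 56.1, 52.9, 58.0 and 56.5 CPM in PAS knockouts and 65.3, 64.2 and 60.2 CPM in PAS controls. Its log2 change was -0.18 ± 0.06 (adjusted p = 0.934 by edgeR). PAS controls were in turn above CDS controls (53.5, 49.6, 57.7 and 59.0 CPM), so the PAS knockouts lay within the CDS control range. Lpin1, a phosphatidate phosphatase of glycerolipid synthesis, had 17.1, 15.8, 17.3 and 15.5 CPM in PAS knockouts and 15.4, 12.9 and 14.3 CPM in PAS controls, a change of 0.21 ± 0.08 (adjusted p = 0.934 by edgeR).

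Abca1, the cholesterol efflux pump that oxysterol-activated LXR receptors induce, ran against the synthesis enzymes: 16.2, 31.5, 13.7 and 17.6 CPM in PAS knockouts and 13.8, 12.5 and 26.3 CPM in PAS controls. Its highest library in each PAS group was thus one where most synthesis enzymes stood low. PAS knockout 4 was an exception: most members were low there, and Abca1 also lay below its group's mean (deviation -0.09, log2 scale). In the CDS line Abca1 was lowest in knockout 4 (13.9 CPM, against 18.7 to 20.7 CPM in the other knockouts) and in control 1 (14.99 CPM, against 17.6 to 20.04 CPM). Abca1 was picked after its values were seen, and genes of a library share its scaling, so this pattern carries no test.

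Some members share exon bases with a neighbour, which matters because the deposited counting command sets no strand option. The share of exon bases that overlap another gene's exons was 18.8% for Fdft1 (Ctsb on the opposite strand), 16.8% for Mvd, 12.1% for Hmgcs1 (Gm48342, opposite strand) and 12.1% for Tm7sf2 (Vps51, same strand). In all, 12 of 26 members had any such base.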

How the data were processed

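RNA was sequenced from ventricles of 15 samples in 4 groups taken from the labels. The deposited counts are whole fragments per gene over exons, made by the authors with featureCounts 2.1.1 in paired mode on GENCODE mouse release 37, per the file headers. The exon length per gene, in base pairs, is deposited beside them. The submitters' processing notes also list FastQC, fastp, HISAT2 2.2.1, STAR 2.7.11b and DESeq2, without saying which made the counts, and both GRCm38 and GRCm39. Coordinates of genes are those in the files.

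Counts were normalised by TMM and tested with edgeR 4.0.16 quasi-likelihood (R 4.3.3), after filterByExpr with a minimum count of 10, in a single fit of 4 group means over 15 libraries. The fit had 11 residual degrees of freedom, TMM factors of 0.986 to 1.01 and a common biological coefficient of variation of 7.44%. P-values were Benjamini-Hochberg adjusted over 20269 genes with a threshold of 0.05. Intervals are 95% per gene, unadjusted. Log2 CPM used a prior count of 2. Scripts were tested on simulated data. Alternatives were DESeq2 1.42.0, limma 3.58.1 (voom), other scaling, filters and samples, and a replicate block.

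Symbols were found for 51487 of 78317 identifiers by stable identifier. Replicates differed by more than sampling noise in all 21 pairs (chi-square per degree of freedom 3.41 to 62.6). The members, gene lists and tests were chosen with earlier results of these data known. Members named in full were the 2 with the smallest p in each comparison and the 3 most abundant per kilobase in controls; from the other lists, the most abundant were named. The design text calls the replicates biological, but which embryos they came from is not given.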

Additional observations from a re-analysis of the deposited data

Results flagged for a closer look

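With groups of 4, 78 member-by-group sets were checked for a library far from the others, and chance alone flags about 1 in 20. In CDS knockout 4, Idi1 stood at 27.4 CPM, Cyp51 at 71.4 CPM and Msmo1 at 47.7 CPM, each far above the other 3 knockouts. Fasn stood at 215 CPM in CDS control 2, far below the other controls. The members share these libraries, so the sets are not independent.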

How the results depend on the processing

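Under 23 alternative settings 0 of 26 members passed in any comparison, and of 2262 member values 186, none of them called, had the other sign, in 25 members. The members' median in the PAS line ran from -0.09 to 0.01. The count over all genes was less stable. Without a filter on low counts it was 31 in the CDS line, 7 in the PAS line, 3 for the difference, 28 for the average and 201 between controls. With DESeq2 it was 20, 7 and 2 for the first 3 of these and 101 between controls, and limma-voom gave 2 for the difference. Fitting only the groups compared gave 1 in the PAS line and 10 between controls. Leaving out both CDS knockouts 3 and 4, chosen after seeing the data, gave 10 for the average. Leaving out single libraries gave 10 to 12, 2 to 3, 1 to 2, 11 to 16 and 15 to 43 genes in the same order, with 15 without PAS control 1 and 2 for the difference without CDS knockout 4 or PAS knockout 4. The members' median for the difference was -0.07 and that between controls 0.15 without PAS control 3. A replicate block gave 1 gene in the PAS line and 8 for the average and called no member. Same-numbered samples were not paired by their deviations (correlations -0.203 to 0.0636), and 0 of 7 knockouts correlated best with their own number. The cause of these shifts was not tested. Groups of 3 or 4 libraries limit the precision to the intervals given.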
